A study of Homo sapiens with 4 samples.

Results

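The genes described here are 32 human genes that are often silenced by promoter methylation in tumours, measured in 4 germ cell tumour cell lines. They were chosen by name from that general knowledge, by a rule that uses no value from these lines, though with earlier results of these data known. Of the 32, 31 had a probe set annotated to that gene alone, out of 19775 genes so represented on the array, and CDH13 was not analysed here. TCam-2 is the seminoma line, NT2D1 the line labelled teratoma, GCT27 the embryonal carcinoma line and GCT44 the yolk sac tumour line. All 4 are labelled as of testicular germ cell tumour origin, NT2D1 coming from a lung metastasis. The labels name no treatment or modification, and each stands for its tumour subtype as a single line on 1 array. The culture medium was RPMI for TCam-2 and DMEM for the rest, both with serum, so that for seminoma against the rest medium and tumour type cannot be told apart. The study asked which genes were silenced in the non-seminoma lines, and its DNA methylation arrays are not used here, so no methylation level stands behind any statement below.

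Many human promoters are rich in CG dinucleotides, which stay unmethylated in most normal cells. In tumours such promoters can acquire dense methylation, and the gene downstream is then often not transcribed. Seminomas resemble early germ cells, whose genome is broadly demethylated, while embryonal carcinoma and yolk sac tumour carry more methylation, and methylation of genes such as RASSF1 and MGMT has been studied in these tumours for that reason.

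The promoters of 6 members whose levels separated the lines are shown with every CG in capitals, because these are the positions that DNA methylation can occupy. Each is the stretch of 250 bases before the annotated start, read in the direction of transcription, from RefSeq on GRCh38.p14. MGMT lies on the plus strand at chr10:129466991-129467240 and UCHL1 on the plus strand at chr4:41256678-41256927. PYCARD lies on the minus strand at chr16:31202761-31203010, SFRP2 at chr4:153789084-153789333, TFPI2 at chr7:93890754-93891003 and CXCL12 at chr10:44385098-44385347, also on the minus strand.
MGMT: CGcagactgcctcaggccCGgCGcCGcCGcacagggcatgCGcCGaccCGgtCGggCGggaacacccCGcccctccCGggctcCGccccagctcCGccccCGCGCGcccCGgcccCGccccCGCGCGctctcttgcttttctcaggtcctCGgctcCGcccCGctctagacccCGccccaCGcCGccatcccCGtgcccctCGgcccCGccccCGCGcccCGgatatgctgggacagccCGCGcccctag
PYCARD: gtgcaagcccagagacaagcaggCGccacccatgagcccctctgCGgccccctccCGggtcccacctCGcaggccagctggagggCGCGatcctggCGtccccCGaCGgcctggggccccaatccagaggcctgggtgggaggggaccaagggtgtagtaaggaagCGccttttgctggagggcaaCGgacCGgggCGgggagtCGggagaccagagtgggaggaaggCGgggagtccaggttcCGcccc
SFRP2: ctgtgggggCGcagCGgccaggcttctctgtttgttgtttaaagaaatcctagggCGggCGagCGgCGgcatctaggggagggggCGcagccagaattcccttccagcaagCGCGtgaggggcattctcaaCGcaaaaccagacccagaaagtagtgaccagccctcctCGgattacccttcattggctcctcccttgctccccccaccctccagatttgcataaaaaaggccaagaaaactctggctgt
TFPI2: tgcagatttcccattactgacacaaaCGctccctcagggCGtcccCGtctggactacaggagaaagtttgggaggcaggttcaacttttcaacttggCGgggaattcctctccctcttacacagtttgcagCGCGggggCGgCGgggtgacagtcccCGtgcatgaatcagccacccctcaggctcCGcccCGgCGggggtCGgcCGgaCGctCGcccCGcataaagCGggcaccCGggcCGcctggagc
CXCL12: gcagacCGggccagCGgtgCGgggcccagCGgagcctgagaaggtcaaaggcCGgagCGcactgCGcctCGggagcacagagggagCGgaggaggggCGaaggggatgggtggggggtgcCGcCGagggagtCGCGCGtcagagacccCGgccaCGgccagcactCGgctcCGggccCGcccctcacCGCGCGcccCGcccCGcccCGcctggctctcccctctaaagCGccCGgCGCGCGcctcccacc
UCHL1: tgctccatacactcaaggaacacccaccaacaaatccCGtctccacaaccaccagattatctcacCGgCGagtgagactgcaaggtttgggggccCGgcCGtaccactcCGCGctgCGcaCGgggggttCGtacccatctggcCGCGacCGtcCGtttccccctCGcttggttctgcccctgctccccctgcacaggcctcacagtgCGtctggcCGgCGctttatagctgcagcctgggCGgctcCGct
These stretches hold 36 CG dinucleotides for MGMT, 31 for CXCL12, 20 for TFPI2, 20 for UCHL1, 16 for PYCARD and 11 for SFRP2.

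The values are scanner intensities on a linear scale, scaled alike on every array. A gene was read from its probe set with the highest mean log2 value. The median of all values, 76.4 units, served as the floor, and intensities at or below it are not ordered and do not show that a gene was absent. A gene was called expressed in a line at 4-fold above the floor, 306 units, or more. Where one of 2 values is at the floor their fold difference is given as "at least". With 1 array per line no difference has a replicate error, so the counts describe sizes and test nothing, and precision is limited by having 4 arrays. Levels of different genes come from different probes and are not compared.

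Markers of the labelled subtypes were read for TCam-2, GCT27 and GCT44, and no teratoma list was read. The summed intensity of 5 seminoma markers was 30833 in TCam-2 against 3446 to 6248 in the other lines, although KIT alone, at 1144 units, was not set apart. That of 4 yolk sac markers was 45142 in GCT44 against 170 to 1195. That of 4 embryonal carcinoma markers was 59156 in GCT27 and 38154 in NT2D1 against 3003 for GCT44 and 3664 for TCam-2. By this sum the line labelled teratoma was high too. Of the TCam-2 sum, DNMT3B alone gave 2841 units. The numbers of markers expressed divided the lines less clearly for 2 of these lists. GCT27 expressed 4 embryonal carcinoma markers, TCam-2 and NT2D1 each 3, and GCT44 2. TCam-2 expressed 5 seminoma markers, NT2D1 and GCT27 each 3, and GCT44 2. GCT44 expressed 4 yolk sac markers, TCam-2 1, and the remaining lines 0. Of 3 blood cell markers measured, 1 was above the floor in TCam-2, NT2D1 and GCT27 and 2 in GCT44, none was expressed, and their sums were 224 to 374. The pan-leukocyte gene PTPRC was at the floor in every line, the T cell gene CD3E reached 88.4 units in GCT44, and the globin gene HBB had 141 to 263. Of 4 fibroblast markers NT2D1 had 2 above the floor and each other line had 3. Their summed intensity was 13430 units (TCam-2), 6464 (NT2D1), 5470 (GCT27) and 7357 (GCT44). DCN was close to the floor throughout, at 69.3 to 95.6 units, and the part of such cells in the levels below was not tested.

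None of the 31 measured members was at the floor in all 3 non-seminoma lines and expressed in TCam-2. Among all 19775 genes 68 had that pattern, which is 0.344%. Above the floor at all in TCam-2 alone were 0 members as well on the probe sets used, against 2.13%. That count depends on the probe set, because CDKN2B had this pattern on its other one. Choice by the linear mean or by the highest single value would take that other probe set. The reverse, at the floor in TCam-2 and expressed in the 3 other lines, was found for 0 members against 0.182% of all genes. The members closest to the first pattern were PYCARD, MGMT and TSPYL5, each kept from it by a single line. Counting each other line as the odd one out, members expressed there alone and at the floor elsewhere numbered 0 for NT2D1 (0.172% of all genes), 0 for GCT27 (0.101%) and 0 for GCT44 (0.415%). Members at the floor there alone and expressed elsewhere numbered 0 for NT2D1 (0.0657%) and 0 for GCT27 (0.121%). CXCL12 was expressed in the first 3 lines and at the floor in GCT44, which was the case for 1 of 31 members and 0.845% of all genes. Together these were the 4 of 31 members that TCam-2 expressed and that lay at the floor in 1 or more other lines, against 3.16% of all genes.

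PYCARD encodes ASC, the adaptor that joins inflammasome sensors to caspase 1. Its intensity was 1554 units (TCam-2), 393 (NT2D1), 20.7 (GCT27) and 49.97 (GCT44). It was therefore expressed in TCam-2 and NT2D1 and at the floor in the other lines. The level in TCam-2 was at least 20.3-fold above GCT27 and GCT44 but 3.95-fold above NT2D1, just short of the 4-fold needed to set TCam-2 apart from all 3. With arrays centred on their medians the margin over NT2D1 was 2.06 on the log2 scale and the gene met the rule. NT2D1 alone kept PYCARD from the pattern of the floor in the non-seminoma lines with expression in TCam-2. Without the NT2D1 array it was therefore the single member with that pattern, beside 105 among all genes.

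MGMT encodes the enzyme that removes alkyl groups from guanine and so reverses damage by alkylating drugs. It had 831 units (TCam-2), 76.3 (NT2D1), 6.20 (GCT27) and 450 (GCT44). TCam-2 and GCT44 expressed it, while NT2D1 and GCT27 were at the floor, NT2D1 by a narrow margin. TCam-2 was at least 10.9-fold above NT2D1 and GCT27 and 1.85-fold above GCT44.

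TSPYL5, a nucleosome assembly family gene linked to growth control, showed the same division of lines. It had 1066 units (TCam-2), 49.5 (NT2D1), 6.20 (GCT27) and 5078 (GCT44). The yolk sac tumour line was the highest, 4.76-fold above TCam-2 and at least 66.4-fold above the other lines. With arrays scaled to the spiked-in controls the margin of GCT44 over TCam-2 was 1.95 on the log2 scale, short of 4-fold. Expression in TCam-2 and GCT44 with NT2D1 and GCT27 at the floor was thus found for 2 of 31 members, MGMT and TSPYL5, against 15 genes or 0.0759% of all genes. This pattern was not among those planned and is the one that these 2 genes showed, so its count beside that share is no test. Other divisions of 2 lines against 2, except that of SFRP2 below, were not counted. The pattern was counted at the floor of 76.4 units only and depends on it. In NT2D1 MGMT had 76.3 and TSPYL5 49.5 units, which is above the 30th percentile of all values, 26.6 units. GCT44 alone kept MGMT and TSPYL5 from the pattern of the floor in the non-seminoma lines with expression in TCam-2. Without the GCT44 array both therefore had that pattern, beside 95 among all genes. Each of MGMT, PYCARD and TSPYL5 had a single probe set, so these levels have no check within the array.

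**Figure D1:**
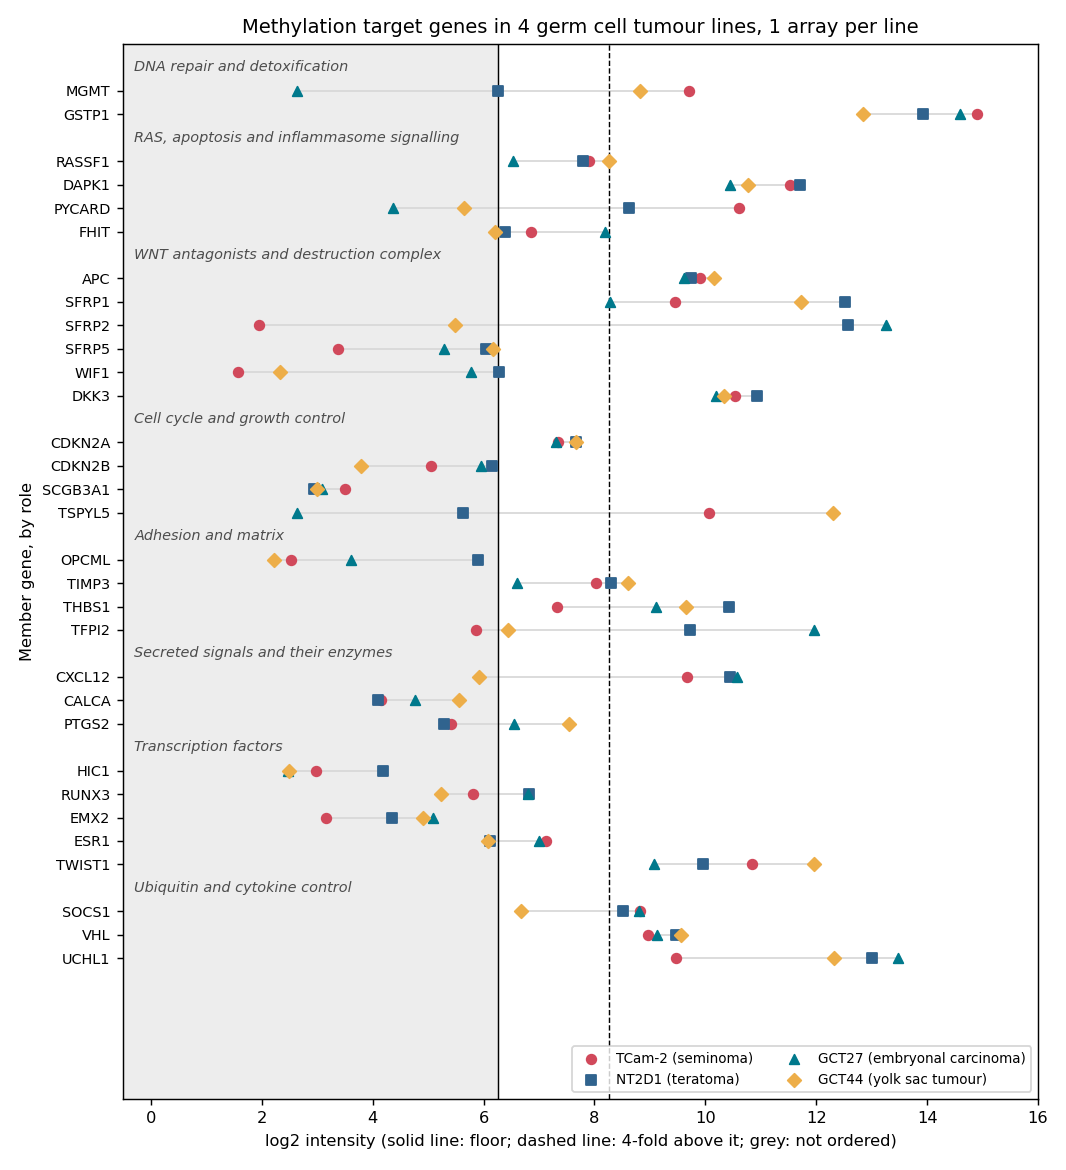
Log2 intensity of the 31 measured members (rows, grouped by role) in the 4 lines, 1 point per array. The solid line is the floor of 76.4 units, the dashed line is 306 units, and values in the grey area are not ordered. PYCARD, MGMT and TSPYL5 have their TCam-2 point right of the dashed line and at least 1 other line with them.

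Of the remaining genes of DNA repair, detoxification and death signalling, GSTP1 and DAPK1 were expressed in every line and RASSF1 and FHIT in none. GSTP1, a glutathione transferase that is methylated in prostate cancer, had 30382 units (TCam-2), 15572 (NT2D1), 24802 (GCT27) and 7304 (GCT44). It was expressed everywhere, and the lowest line, GCT44, lay 4.16-fold below TCam-2. DAPK1, a kinase that promotes cell death, had 2959, 3361, 1388 and 1740 units in that order, a span of 2.42-fold. RASSF1, a scaffold of RAS and Hippo signalling and a classical methylation target, had 238, 222, 92.9 and 306 units. It lay above the floor in every line and below 4-fold over it, GCT44 missing that level by less than 1 unit, and TCam-2 was not set apart. The probe set serves the gene as a whole, so the transcript from the promoter usually methylated was not measured separately. FHIT, a dinucleotide hydrolase at a fragile site, had 116, 84.0, 293 and 73.9 units and was expressed in no line.

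Among the 6 WNT genes, the secreted antagonist SFRP2 separated the lines most. It had 3.86 units (TCam-2), 6124 (NT2D1), 9777 (GCT27) and 44.5 (GCT44). NT2D1 and GCT27 were thus high and both others were at the floor, with TCam-2 at least 80.1-fold below NT2D1 and at least 128-fold below GCT27. That pattern was not among those planned and is the one that SFRP2 showed, so its count is no test. Counted at this floor only, it held for 1 of 31 members and 0.243% of all genes. Its other probe set gave 4.39, 3086, 6344 and 6.15 units, and so divided the lines in the same way.

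SFRP1, a related antagonist, divided them differently. It had 705 units (TCam-2), 5857 (NT2D1), 310 (GCT27) and 3379 (GCT44). It was expressed in every line, GCT27 only just, and NT2D1 was 18.9-fold above GCT27 and 8.31-fold above TCam-2. The 2 further probe sets with signal gave the same order of lines, with 106, 401, 86.3 and 271 units on one and 234, 1152, 97.7 and 737 on the other. The WNT genes of even level were APC, the scaffold of the beta-catenin destruction complex, at 788 to 1136 units, and, on the probe set used, the antagonist DKK3 at 1176 to 1953. Another DKK3 probe set was less even, with 121, 265, 451 and 305 units, lowest in TCam-2. SFRP5 was at the floor in every line. WIF1, which binds WNT ligands, was at the floor except for 77.9 units in NT2D1, just above it.

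Of the 4 matrix and adhesion genes measured, TCam-2 expressed 0 (42.1% of all genes), NT2D1 3 (42.2%), GCT27 2 (42.8%) and GCT44 2 (41.7%). TFPI2, a serine protease inhibitor deposited in the matrix, had 58.2 units (TCam-2), 846 (NT2D1), 3982 (GCT27) and 87.0 (GCT44). GCT27 was 4.70-fold above the next line and at least 52.1-fold above TCam-2, which was at the floor. The other TFPI2 probe set gave 1.94, 655, 5334 and 171 units, with the same line lowest and the same line highest. THBS1, an adhesive glycoprotein that restrains vessel growth, had 161 units (TCam-2), 1382 (NT2D1), 554 (GCT27) and 799 (GCT44). TCam-2 was the lowest line, 3.45-fold below the next. A second THBS1 probe set gave 38.2, 417, 228 and 328 units, with TCam-2 at the floor and again lowest. TIMP3, an inhibitor of matrix metalloproteinases, had 260, 315, 97.5 and 390 units, with GCT27 lowest and a span of 4.01-fold, which only just reached the rule. Its other probe sets also had GCT44 highest but differed otherwise. One gave 254, 129, 77.9 and 371 units, another 64.4, 110, 16.4 and 243. On the third, at 77.9, 102, 86.2 and 184 units, TCam-2 was lowest. OPCML, a neuronal adhesion molecule, was at the floor in every line. SFRP2 and TFPI2 were the 2 of 31 members at the floor in TCam-2 and expressed in 1 or more of the other lines, against 2.7% of all genes.

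Of the secreted signals, CXCL12, the ligand of the receptor CXCR4, had 817 units (TCam-2), 1398 (NT2D1), 1515 (GCT27) and 60.2 (GCT44). The yolk sac tumour line was at least 10.7-fold below each of the others. On the other CXCL12 probe set the values were 359, 475, 359 and 104 units, again lowest in GCT44 but above the floor there. PTGS2, the inducible cyclooxygenase, reached 187 units in GCT44 and 94.1 in GCT27 and was at the floor in TCam-2 and NT2D1. CALCA, the calcitonin gene, was at the floor throughout.

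UCHL1, a neuronal ubiquitin hydrolase, was the single member set apart in TCam-2 by the 4-fold rule. It had 708 units (TCam-2), 8180 (NT2D1), 11418 (GCT27) and 5120 (GCT44), which put TCam-2 7.23-fold below the next line. The gene was nonetheless expressed in every line. Its other probe set gave 28.8, 130, 192 and 106 units, too dim to show a 4-fold fall above the floor, and with that probe set the margin was 0.47 on the log2 scale. SOCS1, which dampens cytokine signalling, had 453, 365, 448 and 102 units, with GCT44 3.59-fold below the next line. A second SOCS1 probe set with signal lay at 140 to 176 units in all lines and did not show that difference. VHL, the substrate receptor for hypoxia-inducible factors, had 501 to 750 units in the 4 lines. Its other probe set was dim, at the floor in TCam-2 and NT2D1 and at 112 units in GCT27 and 99.6 in GCT44.

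Of the transcription factors TWIST1, a driver of mesenchymal change, was expressed in every line, with 1842 units (TCam-2), 999 (NT2D1), 538 (GCT27) and 3984 (GCT44). GCT44 was 7.41-fold above GCT27, and TCam-2 lay between the others. RUNX3, a RUNT domain factor, had 112 units in NT2D1, 111 in GCT27 and values at the floor in TCam-2 and GCT44. ESR1, the oestrogen receptor, had 140 units in TCam-2 and 127 in GCT27 and was at the floor in NT2D1 and GCT44. Its 8 other probe sets were at the floor except for 80.8 units on 1 of them in GCT44. HIC1 and EMX2 were at the floor in every line.

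The cell cycle inhibitors were dim. CDKN2A, an inhibitor of the kinases CDK4 and CDK6 that also encodes ARF, had 158 to 204 units. A second CDKN2A probe set gave 130 units in NT2D1 and 145 in GCT44 and was at the floor in TCam-2 and GCT27, so the probe sets differed. For CDKN2B, its neighbour, the brighter of the probe sets by mean log2 value was at the floor in every line. The other gave 138 units (TCam-2), 66.2 (NT2D1), 13.7 (GCT27) and 4.49 (GCT44), which is above the floor in TCam-2 alone but under 4-fold over it. It was 1 of 2 among 80 member probe sets with that pattern, and the other belonged to DKK3, with 79.4 units in TCam-2. Counted by gene, the pattern held for 2.13% of all genes. The share over all probe sets was not counted, so the number shows nothing particular to the members. SCGB3A1, a secreted growth inhibitor of epithelia, had 7.73 to 11.3 units and was at the floor in every line.

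**Figure D2:**
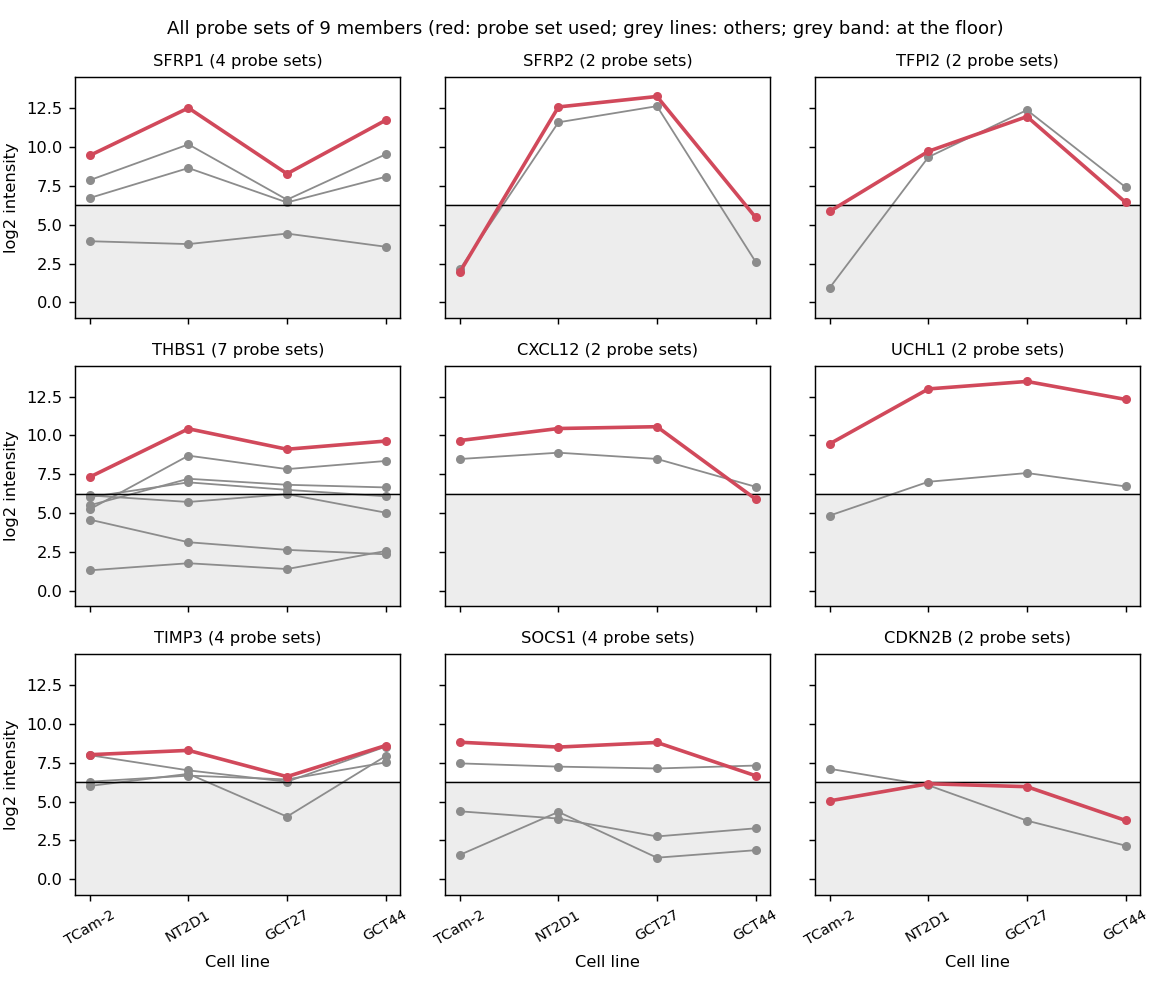
Log2 intensity on every probe set of 9 members that have several, across the 4 lines. Red lines are the probe sets used, grey lines the others, and the grey band lies at or below the floor of 76.4 units. The probe sets with signal gave the same high and low lines for SFRP1, SFRP2 and TFPI2, while those of SOCS1 and CDKN2B differed. Those of TIMP3 differed in the lowest line.

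In all, 8 of 31 members were expressed in every line, against 33.2% of all genes. They were GSTP1, DAPK1, APC, SFRP1, DKK3, TWIST1, VHL and UCHL1. At the floor in every line were 7 of 31, against 24.5% of all genes, namely SFRP5, CDKN2B, SCGB3A1, OPCML, CALCA, HIC1 and EMX2. For CDKN2B this holds on the probe set used and not on its other one. Expressed in some but not all lines were 9 of 31, against 18.5%, and above the floor but expressed in no line were 7 of 31, against 23.7%. A span of 4-fold or more across the lines was reached by 13 of 31, against 15.5% of all genes. The members are known to vary between tumours, and the count is a description of 4 arrays.

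The number of members switched on was similar in the 4 lines. TCam-2 expressed 13 of 31 members against 42.1% of all genes. NT2D1 expressed 15 against 42.2%, GCT27 expressed 13 against 42.8% and GCT44 expressed 12 against 41.7%. At the floor were 12 members in TCam-2 (37.7% of all genes), 11 in NT2D1 (36.7%), 11 in GCT27 (35.4%) and 14 in GCT44 (39.2%). The difference between TCam-2 and the mean of the other 3 lines, on the log2 scale, had a median of 0.05 over the 24 members that reached the floor in some line, beside -0.06 over the 14926 genes that did. Over these members it ranged from -4.44 for SFRP2 to 3.56 for PYCARD.

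**Figure D3:**
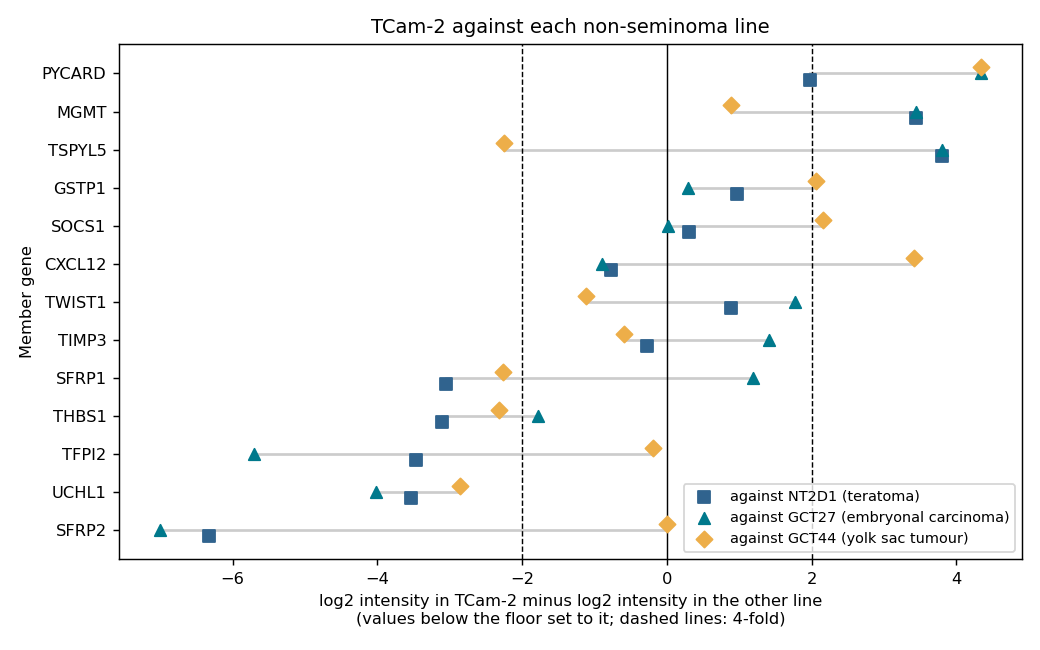
Log2 intensity in TCam-2 minus that in each non-seminoma line, for the 13 members that span 4-fold or more. Dashed lines mark 4-fold. All points lie right of 0 for PYCARD, MGMT, GSTP1 and SOCS1, and none of these has all 3 points beyond the dashed line. For UCHL1 all 3 points lie beyond it on the left.

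Compared pair by pair, TCam-2 was at least 4-fold above NT2D1 for 2 members (3.18% of all genes) and below it for 5 (3.05%). The 5 were SFRP1, SFRP2, THBS1, TFPI2 and UCHL1. Against GCT27 it was above for MGMT, PYCARD and TSPYL5, 3 members (2.71%), and below for SFRP2, TFPI2 and UCHL1, also 3 (2.86%). Against GCT44 it was above for 4, GSTP1, PYCARD, CXCL12 and SOCS1 (4.3%), and below for 4, SFRP1, TSPYL5, THBS1 and UCHL1 (3.31%). The 3 comparisons share the TCam-2 array. Between non-seminoma lines, NT2D1 was above GCT27 for PYCARD and SFRP1, 2 members (1.58%), and below it for TFPI2, 1 member (1.95%). NT2D1 was above GCT44 for PYCARD, SFRP2, TFPI2 and CXCL12, 4 members (3.59%), and below it for MGMT and TSPYL5, 2 members (2.85%). GCT27 was above GCT44 for SFRP2, TFPI2, CXCL12 and SOCS1, 4 members (4%), and below it for MGMT, SFRP1, TSPYL5, TIMP3 and TWIST1, 5 members (3.14%). Beyond the nearest of the other lines, 0 of 24 members were at least 4-fold higher in TCam-2 (1.49% of the 14926 genes compared) and 1 was lower, UCHL1 (0.744%). In GCT44 TSPYL5 was higher (1.7%) and CXCL12 lower (1.69%), in GCT27 TFPI2 was higher (0.603%) and 0 lower (0.322%), and in NT2D1 no member was either (0.523% and 0.241%).

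TCam-2 was also tested against the 3 non-seminoma lines with limma, whose spread then comes from lines of different subtypes and whose lone array is assumed to vary as those do. No member passed an adjusted p of 0.05, and neither did any of the 14926 genes (0% called). The lowest p belonged to UCHL1, lower in TCam-2 than in 3 of 3 lines, at -3.47 on the log2 scale with an SE of 0.576 (limma adjusted p = 0.448). Its adjusted p lay between 0.249 and 0.569 over the alternatives fitted. At an unadjusted p of 0.05, 2 of 24 members passed, UCHL1 and THBS1, against 6.05% of all genes in limma.

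Further genes often methylated in tumours were read in the same way. Of 30 such genes measured, 0 were at the floor in the non-seminoma lines and expressed in TCam-2, against 0.344% of all genes. Above the floor in TCam-2 alone was 1 of 30, SYK, against 2.13% of all genes. SYK had 197 units in TCam-2, under 4-fold over the floor, and 19.6 to 53.2 in the other lines. IGFBP3, which binds insulin-like growth factors, and DLC1 were the 2 of 28 compared that were higher in TCam-2 (1.49% of all genes), and CAV1, the caveolar coat protein, was the 1 that was lower (0.744%). IGFBP3 had 9385, 256, 96.4 and 6.70 units in TCam-2, NT2D1, GCT27 and GCT44, and was 36.6-fold above the next line in TCam-2. DLC1 had 2516, 617, 558 and 107 units in that order, and CAV1 had 514, 2173, 2183 and 2404. In GCT44 4 of the 28 were higher (1.7% of all genes), LOX, PCDH10, DKK1 and SLIT2, and 2 lower (1.69%), CDH1 and DLC1. PCDH10, a protocadherin, had 3.0 units (TCam-2), 3.42 (NT2D1), 1124 (GCT27) and 10261 (GCT44). In a list of 14 WNT genes, of which SFRP4, FRZB, DKK1 and DKK2 also stand in the list above, 13 could be compared and 0 of them were higher (1.49% of all genes) or lower (0.744%) in TCam-2 by the rule. DKK4, an antagonist, had 2660 units in GCT44 and was at the floor elsewhere.

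The enzymes that write and erase the mark were mostly present. Of 15 such genes and readers measured, 13 were expressed in every line (33.2% of all genes), 1 was higher in TCam-2 (1.49%) and 0 lower there (0.744%). DNMT3L, the partner of the de novo methyltransferases, was the higher one and had 2083, 15.0, 189 and 8.92 units in TCam-2, NT2D1, GCT27 and GCT44. The maintenance enzyme DNMT1 had 2171, 5532, 4335 and 3283 units in that order, lowest in TCam-2. DNMT3A had 3339 to 3991 units, and DNMT3B had 2841, 11360, 23760 and 2377. TET1, which oxidizes methylcytosine, had 12664 units in TCam-2 against 1309 to 4951, 2.56-fold above the next line. TET2 was lower in GCT27, at 72.4 units against 340 to 1048.

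The promoters of the members were read for their CG content. Genes known for promoter methylation tend to have CG-rich promoters, so the choice of members bears on these counts, which are a description. RefSeq promoter windows of 300 bases, 250 before and 50 after the start, were found for 25 of 32 members. DKK3, HIC1, SFRP1, TSPYL5, TWIST1, VHL and CDH13 had no match. Some members have several starts, which gave 36 windows. Both strands hold a CG at the same place, so it was counted once. The median was 25 CG per member window against 14 over all 35116 windows, and 66.7% of member windows were CG-rich against 46.9% of all. No window of CALCA, FHIT or SFRP2 was. A window was called CG-rich at a GC content of 50% and an observed-to-expected CG ratio of 0.6 or more. At least 1 CG was present in 97.2% of member windows and 96% of all. The motif GGGCGG, which itself holds a CG, was found on either strand in 72.2% of member windows and 45% of all.

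MGMT had 45 CG in its window, more than 96.5% of all windows. OPCML had 50 and CXCL12 had 39, whereas SFRP2 had 15 and PTGS2 had 12. Each gene with several windows was placed by the window with most CG. Of the members at the floor in all lines 5 of 6 with a window were CG-rich, whereas 32.9% of all 3457 genes at the floor in every line were. The members expressed in every line were CG-rich in 4 of 4 cases, against 93.4% of all such genes. Those expressed in some lines were in 7 of 8 cases, against 78.8%, and PYCARD was so only just, at a CG ratio of 0.6003. Those above the floor but expressed in no line were in 6 of 7 cases, against 59%. Among these RASSF1 was placed by its only window, which was not checked to be the promoter usually methylated. The median was 26.5 CG for the members at the floor, from 14 to 50, and 30.5 for those expressed in every line. Such windows are a description of the sequence, and methylation was not measured here.

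**Figure D4:**
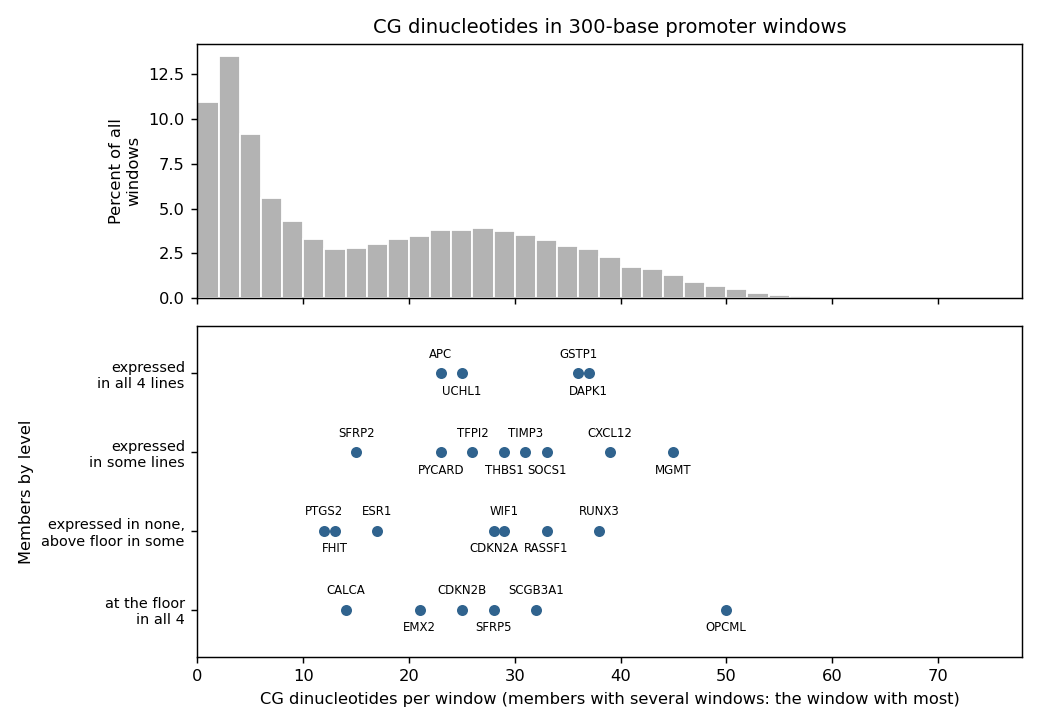
Number of CG dinucleotides in 300-base promoter windows, as percent of all 35116 windows (top, bars) and for 25 members by their level in the lines (bottom, points). The members at the floor in all 4 lines span 14 to 50 CG, and those expressed in all 4 lines span 23 to 37.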

How the data were processed

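RNA of 4 cell lines was measured on 1 expression array each. The deposited values are intensities on a linear scale, which the authors had scaled to nearly the same trimmed mean per array. Per the submitters' processing notes RMA was used, with no version given, but the deposited values are not on its usual log2 scale, so how the background was treated is unknown. Such scaling hides a difference in total RNA between lines. Of 54675 probe sets, 41097 were annotated to 1 gene, 1801 to several and 11777 were not listed. Only the first were used, and each gene was read from the one with the highest mean log2 value. Values under the median of all values, 76.4, were set to it. A line was set apart at 4-fold (2 on the log2 scale) beyond the nearest other line, among 14926 genes that reached the floor in some line. limma 3.58.1 in R 4.3.3 compared unfloored log2 values with an intensity trend, 2 residual degrees of freedom and Benjamini-Hochberg adjustment over those genes, and was tested on simulated data. Counts and plots used Python 3.11.15 with pandas 2.3.3, numpy 2.4.6 and matplotlib 3.10.9. All measured members are named, and genes of the other lists mainly where they were set apart in a line or are textbook enzymes of DNA methylation. The members and lists were chosen with earlier results of these data known. Alternatives changed the floor, the fold, the probe-set choice, the scaling, the fit and the lines included. Choosing probe sets by the linear mean and scaling to spiked-in controls were chosen after seeing the data. Counts of patterns with 2 lines against 2, or with 1 or more of the other lines, were not planned either.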

Additional observations from a re-analysis of the deposited data

How the results depend on the processing

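No paired analysis was possible because each group has 1 sample. Members at the floor in the 3 non-seminoma lines and expressed in TCam-2 numbered 0 under the 11 alternatives that kept all lines. With a non-seminoma line left out they numbered 0 to 2, which follows from the values given above. They were PYCARD without NT2D1, none without GCT27, and MGMT and TSPYL5 without GCT44. Over all genes the counts were 105, 130 and 95 in that order, against 68 with all lines. The number of calls that set a member apart in a line, where a member may count in several lines, was 4, and became 13 at a 2-fold limit, 1 at an 8-fold limit, 20 against the mean of the other lines, and 8 to 10 with a line left out. The share over all genes was not counted under these alternatives, so these numbers show nothing particular to the members. The margin of UCHL1 in TCam-2 was 0.47 on the log2 scale without probe sets that may cross-hybridise, that of CXCL12 in GCT44 was 1.70 with the floor at the 70th percentile of all values, 252 units, and that of TSPYL5 in GCT44 was 1.95 with spiked-in scaling. Spiked-in scaling moved the median of all genes by 0.26 in GCT27 and -0.29 in GCT44, and also set THBS1 and SOCS1 apart. The margin of PYCARD in TCam-2 reached 2.06 with arrays centred on their medians. The margins of UCHL1, PYCARD and MGMT in TCam-2, TFPI2 in GCT27, and TSPYL5 and CXCL12 in GCT44 kept their direction wherever they were computed. Other differences were not followed for direction. limma called 0 members under every fit run, and 1 gene that is no member when probe sets were summarised by their median. The cause of these changes was not tested. Signal over background limits members near the floor, such as MGMT in NT2D1 and WIF1, and 1 array per line limits all.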

Other observations

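Genes that act with the members, such as receptors and target kinases, were read in the same way, and 15 of 17 had a probe set of their own. Of 13 compared, 1 was higher in TCam-2 (1.49% of all genes), CXCR4, and 1 lower there (0.744%), RB1. In GCT27 1 was lower (0.322%), ACKR3. CXCR4, the receptor of CXCL12, had 11729 units (TCam-2), 439 (NT2D1), 91.5 (GCT27) and 157 (GCT44), and was 26.7-fold above the next line in TCam-2. ACKR3, the scavenging receptor of the same ligand, had 1001, 1932, 230 and 3896 units, 4.35-fold below the next line in GCT27. TCam-2 thus had the highest level of the receptor CXCR4 and expressed its ligand. NT2D1 expressed both as well, with CXCL12 at 1398 units against 817 in TCam-2. GCT44 had the highest ACKR3 level of the 4 lines. Its CXCL12 was at the floor on the probe set used and had 104 units on the other. RB1, the target of the kinases that CDKN2A and CDKN2B inhibit, had 368 units (TCam-2), 2282 (NT2D1), 1817 (GCT27) and 3432 (GCT44), 4.94-fold below the next line in TCam-2. NLRP3, a sensor that acts through the PYCARD product, was at the floor in every line.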
